A study of Mus musculus with 17 samples.

Results

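The genes described here encode the nuclear subunits of mitochondrial oxidative phosphorylation and a few of its assembly factors. They were chosen by name: symbols that start with Nduf, Uqcr or Atp5, the 4 genes Sdha to Sdhd, and symbols made of Cox, a digit from 4 to 8 and the letter a, b or c. The rule found 90 of the 23891 gene symbols in the files. These symbols had 110 transcripts among the 32661 measured, 11 of the symbols had more than 1, and each gene was read from the transcript with the highest mean level over the 17 samples. By complex, 38 genes belonged to complex I, 7 to its assembly factors (Ndufaf), 4 to complex II, 8 to complex III, 16 to complex IV and 15 to complex V. The other 2, Atp5s and Atp5sl, carry an Atp5 name but are not counted here as subunits of the enzyme. The rule itself uses no difference between groups, but it was set with earlier results of these data known.

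Oxidative phosphorylation couples electron transport to ATP synthesis in the mitochondrial inner membrane. Complex I (NADH dehydrogenase) and complex II (succinate dehydrogenase) pass electrons to ubiquinone, complex III (the cytochrome bc1 complex) passes them on to cytochrome c, and complex IV (cytochrome c oxidase) hands them to oxygen. Complexes I, III and IV pump protons, and complex V (the F1Fo ATP synthase) makes ATP as the protons flow back. Complexes I, III, IV and V also hold subunits encoded by mitochondrial DNA, which the rule does not take in, whereas complex II is encoded by the nucleus alone. Several subunits of complex IV, cytochrome c and the ADP/ATP carrier have isoforms known for expression in the testis, and pluripotent cells are known for relying strongly on glycolysis.

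The study compared cultured spermatogonial stem and progenitor cells (SSCs) of the adult mouse testis with the multipotent adult spermatogonial-derived stem cells (MASCs) that arise from such cultures without added reprogramming factors, and with other stem and somatic cells. RNA-seq was made from 4 SSC lines, 6 MASC lines, 2 embryonic stem cell (ESC) lines, 2 induced pluripotent stem (iPS) lines, 2 haematopoietic stem and progenitor cell (HSC) cultures and 1 culture of mouse embryonic fibroblasts (MEFs). SSC.1, SSC.2, MASC.1, MASC.2 and ESC.1 were of the Oct4-GFP strain, SSC.4, MASC.3, MASC.4, ESC.2, both iPS lines and the MEFs were 129mix, MASC.5 and MASC.6 were Gt(ROSA26)Sor-lacZ, and SSC.3 and both HSC cultures were C57Bl/6J. The iPS lines were made with doxycycline from embryonic MEFs that carried tetO-4F2A and H3.3B-HA, and the MEF sample carried H3.3B-HA. MASC, ESC and iPS lines grew on MEF feeders with LIF, SSC lines were freed of feeders by plating on gelatin, and the HSC cultures were lineage-negative bone marrow cells expanded on endothelial cells. SSC medium held serum, GDNF, FGF and EGF with added glucose, pyruvate and lactate. MASC, ESC and iPS lines grew in ESC medium with serum replacement. Medium thus differed between SSC and MASC lines, and its part cannot be told apart from that of conversion. Each line counted as 1 replicate. MASC lines were subcloned, so a line can stand for 1 clone, and the p-values measure the spread between lines. The labels used here name no parent SSC line for a MASC line, so the groups were compared as unpaired lines.

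Levels are FPKM (fragments scaled to transcript length and to the size of the library) as deposited, so genes can be compared with each other per length. The markers mostly followed the labels: all 8 pluripotency markers were higher in MASC than in SSC lines (Pou5f1 at 693 to 1007 against 1.37 to 94.5), and 7 of 8 spermatogonial markers were lower (Dazl at 0.995 to 7.38 against 202 to 405). The other, Etv5, was called higher, with overlapping groups (81.1 to 128 against 11.4 to 123). Of 6 testis somatic markers 2 were lower in MASC lines, and the 6 summed to 22.5 to 33.1 FPKM in SSC and 6.66 to 21.7 in MASC lines. The HSC cultures held haematopoietic markers (Kit at 286 and 401) and also mast cell markers, whose 7 genes summed to 38436 and 63047 FPKM against at most 46.9 in any other sample. Fibroblast markers, which feeders would bring in, summed to 5283 in the MEFs, to 904 in MASC.1, 777 in SSC.3, 368 in HSC.2, 334 in ESC.1 and 319 in SSC.1, and to between 1.21 and 105 in the other 11 samples. None of the 9 fibroblast and 7 mast cell markers was called between MASC and SSC lines. The cultures are bulk samples, so that fewer cells of a type and less RNA per cell cannot be told apart.

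The promoters of these genes are shown first, because motifs of the factors known to control respiratory genes were common in them. Of the 90 genes, 76 matched the RefSeq promoter table (GRCm38.p6), with 82 promoters. In the 250 bases before and 50 bases after the start, on both strands, the palindromic NRF1 motif stood in 24.4% of these promoters and in 4.6% of all 32851 promoters of the table. The ETS motif CCGGAAG, bound by the GABPA family, stood in 20.7% against 8.86%, the YY1 motif AANATGGC in 24.4% against 6.05%, and the oestrogen-related receptor motif TCAAGGTCA in 2.44% against 0.423%. At least 1 of the 4 motifs was present in 61% against 17.8%. The median number of CpG dinucleotides was 20 against 7 in the same window, and the motifs NRF1 and ETS themselves contain CpG. By complex, NRF1 motifs stood in 6 of 17 promoters of complex V, 8 of 35 of complex I, 1 of 13 of complex IV and 2 of 3 of complex II, whereas YY1 motifs stood in 12 of 35 of complex I and 4 of 17 of complex V. A match describes the letters and does not show that a factor binds. Motifs were not compared between genes that were higher and genes that were lower in MASC lines. Sdha, which was lower, has 3 NRF1 motifs, and Ndufs8, also lower, has an ETS and a YY1 motif. Cox5a, Uqcr10, Uqcrfs1, Ndufa1 and Ndufa10, which were higher, have none of the 4 motifs. Of the promoters below, 3 belong to genes that were higher in MASC than in SSC lines and that carry a motif, and Cox7b2 is a testis-type isoform that was lower and carries none of the 4. Each is the 250 bases before the start on the minus strand, 5′ to 3′, with the motifs in capitals:
Atp5g2 (chr15:102671048-102671297, NRF1 motif 42 bases before the start, 19 CpG): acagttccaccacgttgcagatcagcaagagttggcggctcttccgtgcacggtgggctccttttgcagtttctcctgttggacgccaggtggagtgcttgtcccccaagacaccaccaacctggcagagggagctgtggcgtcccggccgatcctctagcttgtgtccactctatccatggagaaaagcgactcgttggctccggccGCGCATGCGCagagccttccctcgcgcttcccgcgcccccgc
Atp5g3 (chr2:73911327-73911576, oestrogen-related receptor motif 52 bases before the start, 15 CpG): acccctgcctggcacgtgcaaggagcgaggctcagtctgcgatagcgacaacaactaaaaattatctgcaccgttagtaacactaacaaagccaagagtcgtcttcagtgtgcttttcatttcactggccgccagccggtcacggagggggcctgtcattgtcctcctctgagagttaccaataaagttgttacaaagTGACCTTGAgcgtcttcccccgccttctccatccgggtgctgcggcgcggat
Sdhd (chr9:50603850-50604099, NRF1 motif 79 and ETS motif 46 bases before the start, 27 CpG): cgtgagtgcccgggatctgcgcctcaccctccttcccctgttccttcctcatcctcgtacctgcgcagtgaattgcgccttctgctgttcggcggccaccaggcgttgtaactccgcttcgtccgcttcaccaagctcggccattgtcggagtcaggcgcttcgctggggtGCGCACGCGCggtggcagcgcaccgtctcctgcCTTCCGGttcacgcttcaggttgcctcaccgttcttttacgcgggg
Cox7b2 (chr5:71548206-71548455, no motif, 9 CpG): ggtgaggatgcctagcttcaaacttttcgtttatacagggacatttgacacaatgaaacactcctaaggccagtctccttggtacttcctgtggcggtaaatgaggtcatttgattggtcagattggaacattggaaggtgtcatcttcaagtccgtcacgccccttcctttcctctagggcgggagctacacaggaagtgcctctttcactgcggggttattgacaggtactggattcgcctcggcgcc

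Most of these genes were expressed at high levels in every cell type. The median gene had a mean of 104 FPKM over the 17 samples, and 48 of the 90 genes had a mean of at least 100. Complex V stood highest: all 15 genes had a mean of at least 100, from 113 for Atp5g1 to 810 for Atp5b, the catalytic beta subunit, with a median of 318. Complex III had a median of 239 (from 70.7 for Uqcrfs1, the Rieske iron-sulphur protein, to 285 for Uqcr10) and complex IV one of 160 (from 0.036 for Cox8b to 514 for Cox6a1). The complex I genes had a median of 98.5, from 9.62 for Ndufa4l2 to 351 for Ndufa4, which keeps its complex I name although the protein is now placed with complex IV. The 4 complex II genes lay close together, between 91.7 (Sdha) and 98.2 (Sdhd). The assembly factors were far lower, with a median of 11.3 and a highest mean of 32.5 (Ndufaf2), and Atp5s and Atp5sl had means of 4.21 and 20.7. Only Cox8b and Cox6a2, the heart and muscle isoforms, had means below 1. Across the 17 samples the median SD of these genes was 0.43 on the log2 scale, against 0.64 for the 7424 transcripts with a mean FPKM of at least 10. The transcripts were short, with a median of 680.5 bases against 2290 for those 7424.

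**Figure D1:**
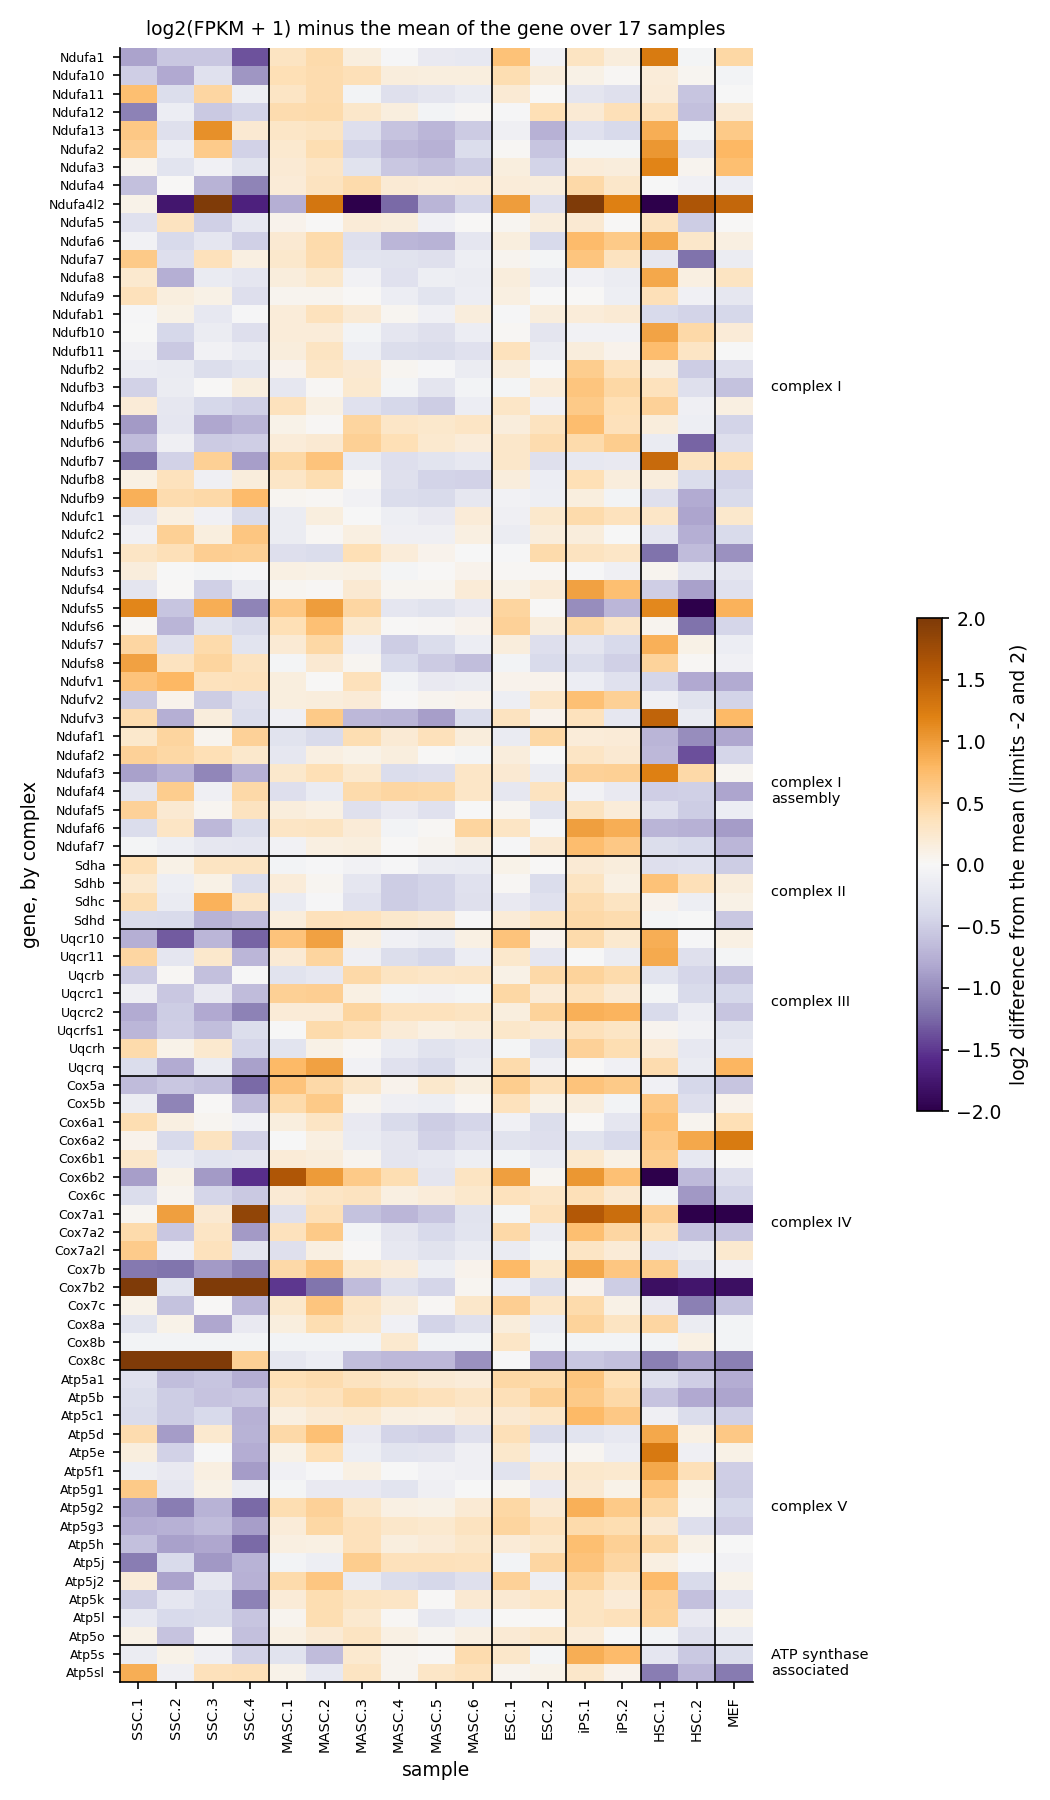
Heat map of 89 of the 90 genes (rows, by complex) in the 17 samples (columns, by group); colour gives log2(FPKM + 1) minus the mean of the gene over the 17 samples, limited to -2 and 2. Many complex V rows changed colour between SSC and MASC lines, such as Atp5b at 506 to 603 FPKM in SSC and 939 to 1057 in MASC lines, and the testis-type rows Cox7b2 and Cox8c stood out in SSC lines.

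The main question was how MASC lines differ from SSC lines, which also grew in another medium. Transcripts of 9 of 15 ATP synthase subunits and 4 of 8 complex III subunits were higher in MASC lines, whereas complexes I, II and IV held genes that were higher and genes that were lower. With limma on log2(FPKM + 1), fitted to 12 lines (those labelled MASC, ESC or SSC), 31 of the 90 genes were higher and 9 lower in MASC lines at an adjusted p under 0.05, and 50 were not called. At an unadjusted p under 0.05 the counts were 34 and 11. Of all 32661 transcripts 11.4% were called higher and 19.5% lower. Of the 7424 with a mean FPKM of at least 10 these shares were 26.5% and 22.3%, and of the 1095 that were also at most 1000 bases long they were 30.1% and 10.2%. The 31 and 9 of 90 lay near the last pair of shares, so the count as a whole did not set these genes apart from other short, well expressed transcripts. The median difference of the 90 genes was 0.19, against 0.07 for the 7424 transcripts and 0.33 for the 1095 short ones. In 24 genes every MASC line was above every SSC line and in 5 every one was below, against 9.92% and 15.4% of all transcripts.

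The balance of higher and lower calls depended on how the samples were scaled, and so did many calls of single genes. With FPKM as deposited the split was 31 higher and 9 lower, and with quantile normalization it was 19 and 19. With each sample centred on the median of transcripts with a mean FPKM of at least 1 it was 47 and 4, and with the coding transcripts scaled to an equal total it was 20 and 25. With GC content and transcript length removed from each sample it was 18 and 33. The median difference of the well expressed transcripts was 0.07, 0.07, 0.33, -0.22 and 0.01 under these 5 scalings, and that of the 90 genes 0.19, -0.06, 0.45, -0.11 and -0.17. In the first 4 of them 16 genes were called higher and 3 lower throughout, against 7.9% and 12.5% of all transcripts and 16.5% and 16.8% of the well expressed ones. The 16 of 90 lay near the share of well expressed transcripts, so that count did not set these genes apart. The 16 were Ndufa1, Ndufa10, Ndufb5, Ndufaf3, Sdhd, Uqcr10, Uqcrc2, Uqcrfs1, Cox5a, Cox6b2, Cox7b, Atp5a1, Atp5c1, Atp5g2, Atp5g3 and Atp5h, and the 3 were Ndufb9, Cox7b2 and Cox8c. All but Ndufa1 were also called with GC content and length removed. Summed coding FPKM was 392820 to 471220 in SSC and 506400 to 597430 in MASC lines. Transcripts of at most 600 bases stood -0.45 to -0.02 from the median of all in SSC lines and -0.06 to 0.51 in MASC lines on the log2 scale, and the part of this in the results was not tested beyond the fit with length removed.

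**Figure D2:**
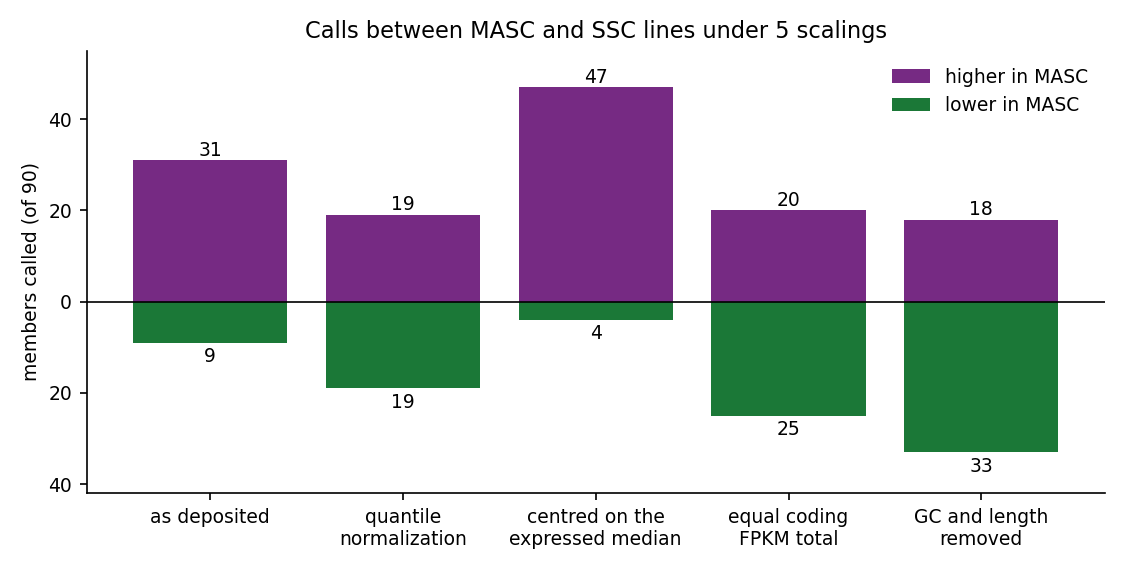
Bars give the number of the 90 genes called higher (up) and lower (down) in MASC than in SSC lines under 5 scalings of the same FPKM values; the axis starts at 0. The split moved from 31 higher and 9 lower as deposited to 18 and 33 with GC content and length removed.

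Within a sample the ratio of 2 sums is unchanged by a single scaling factor for that sample, so the complexes were also set against each other. Quantile normalization and the removal of GC content and length change genes unequally, and would change these ratios. The summed FPKM of complex V was 0.769 to 0.910 times that of complex I in the 4 SSC lines, with a median of 0.847. In the 6 MASC lines it was 1.18 to 1.42 times that of complex I, with a median of 1.33, and in the ESC lines 1.28 and 1.39 times. Both iPS lines stood at 1.30, the HSC cultures at 1.07 and 1.14 and the MEFs at 0.922. No SSC line reached the lowest MASC, ESC, iPS or HSC sample. Complex III relative to complex I was 0.281 to 0.336 in SSC and 0.396 to 0.437 in MASC lines, and complex IV relative to complex I was 0.659 to 0.746 and 0.804 to 0.835. The complex IV sum leaves out Cox4i1, which the name rule does not take in. That gene was higher in SSC.1 and SSC.3 than in any MASC line, and the ratio with it included was not computed. The complex I sum includes Ndufa4. The complex II sum was 10.8% to 13.4% of the complex V sum in SSC lines and 6.35% to 6.99% in MASC lines. Between single genes, Atp5b had 4.47 to 5.53 times the FPKM of Sdha, the flavoprotein of complex II, in SSC lines and 10.8 to 12.2 times in MASC lines, a pair chosen after its values were seen. Of the summed coding FPKM all 90 genes took 2.60% to 2.89% in SSC and 2.59% to 3.07% in MASC lines, which overlapped. Complex I took 0.907% to 0.954% in SSC and 0.690% to 0.861% in MASC lines, complex V 0.698% to 0.843% and 0.972% to 1.05%. The ratios are descriptions without a test.

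**Figure D3:**
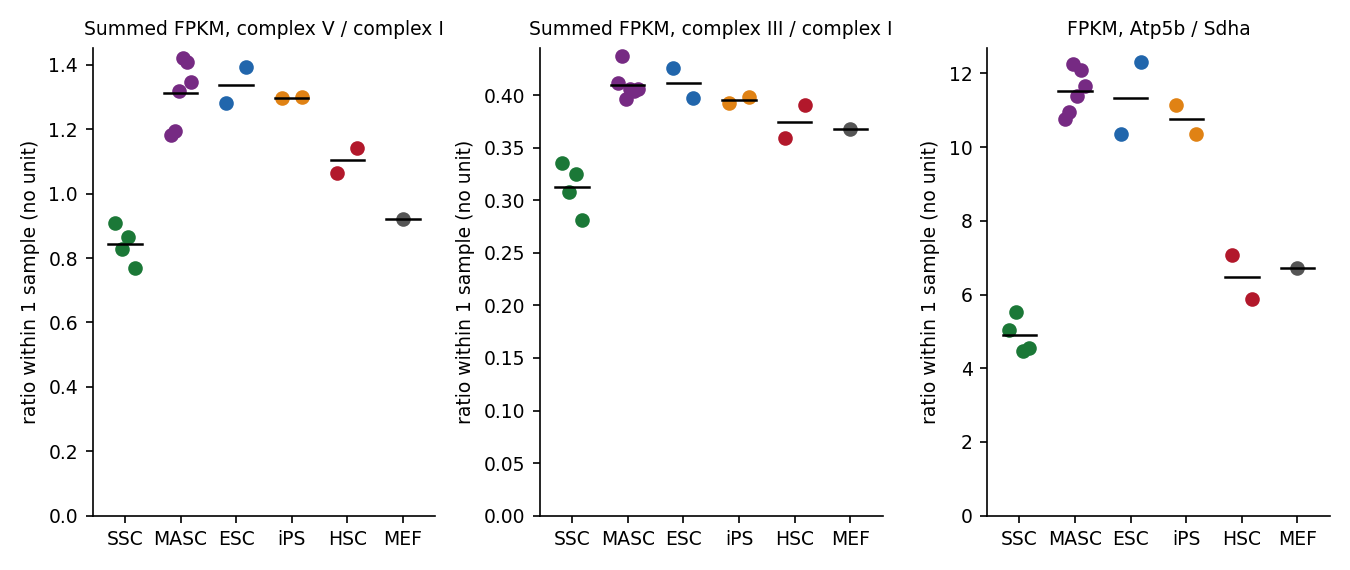
Points give 1 sample each, lines the group mean, for the summed FPKM of complex V over complex I, of complex III over complex I, and for Atp5b over Sdha; axes start at 0. SSC lines lay below every MASC line in all 3 panels, at 0.769 to 0.910 against 1.18 to 1.42 for complex V over complex I.

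Of the 38 complex I genes 10 were higher and 3 lower in MASC lines, with a median difference of 0.09. Of the well expressed transcripts 26.5% were higher and 22.3% lower, shares that apply to each complex below. The 10 of 38 lay near the first share. Under the other scalings, in the order above, the counts were 4 and 8, 17 and 1, 4 and 12, and 2 and 17, and the median changed sign to -0.14, -0.22 and -0.28 in all but the centred one (0.36). Of the 7 core subunits that carry the flavin and iron-sulphur centres and bear an Nduf name, 1 was higher (Ndufv2, 0.43) and 2 were lower (Ndufs8 and Ndufv1). The others called higher were Ndufa4, whose protein is now placed with complex IV, and accessory subunits. Of these, Ndufs4 and Ndufs6 are needed for assembly of the NADH-oxidising arm.

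Ndufa10, an accessory subunit of the membrane arm, was at 55.1, 44.1, 63.9 and 39.9 FPKM in SSC.1 to SSC.4 and at 86.5 to 106 in MASC lines, with a median of 94.9. The groups did not overlap, and the difference was 0.92 on the log2 scale (SE 0.133, adjusted p = 0.000593). Ndufa1, a small X-linked subunit of the membrane arm, was at 49.5, 61.1, 61.1 and 34.2 in SSC lines and 78.7 to 124 in MASC lines (median 94.4), a difference of 0.92 (SE 0.218, adjusted p = 0.00976). Its call was lost with GC content and length removed (0.38, adjusted p = 0.114). It was also lost without the 5 samples of highest fibroblast markers after the MEFs (1.01, adjusted p = 0.0516). Ndufb5, another membrane-arm subunit, was at 34.3, 55.6, 36.7 and 39.6 against 66.9 to 93.5 (median 79.2), a difference of 0.91 (SE 0.138, adjusted p = 0.000755). Its exons overlap those of Mrpl47 on the opposite strand, and counting was not stated to use strand. Ndufa4 differed by 0.86 (SE 0.172, adjusted p = 0.00400), with SSC.2 at 342 apart from the other SSC lines at 161 to 219 and MASC lines at 381 to 462, but was not called with quantile normalization (0.36, adjusted p = 0.235), with GC content and length removed (0.28, adjusted p = 0.175) or without the 5 samples of highest fibroblast markers (0.80, adjusted p = 0.104).

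Ndufb9, also of the membrane arm, went the other way under every scaling. It was at 366, 270, 279 and 339 FPKM in SSC.1 to SSC.4 and at 153 to 207 in MASC lines (median 184), so that every MASC line was below every SSC line (difference -0.78, SE 0.117, adjusted p = 0.000735). Ndufs8, which carries iron-sulphur clusters, was at 172, 111, 126 and 112 against 56.3 to 103 (median 75.9), a difference of -0.76 (SE 0.198, adjusted p = 0.0158). Ndufv1, the NADH-binding flavoprotein, was at 144, 156, 114 and 115 against 79.1 to 116 (median 88.1), where only MASC.3 at 116 reached the SSC range. It differed by -0.52 (SE 0.127, adjusted p = 0.0113). When samples were centred neither was called (Ndufs8 -0.50, adjusted p = 0.0546, and Ndufv1 -0.26, adjusted p = 0.106), nor was either called without the 5 samples of highest fibroblast markers (-0.60, adjusted p = 0.174, and -0.58, adjusted p = 0.0832).

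Among the 7 assembly factors of complex I, 2 were higher and 1 lower. Ndufaf3, which acts early in the assembly of the membrane-bound arm, was low in SSC lines at 5.44, 6.04, 4.65 and 6.04 FPKM and reached 8.14 to 14.5 in MASC lines (median 12.9), a difference of 0.93 (SE 0.174, adjusted p = 0.00266). It was not called without the 5 samples of highest fibroblast markers (0.78, adjusted p = 0.0805). Ndufaf2, an assembly factor of the peripheral arm, was at 45.8, 43.6, 41.5 and 37.4 in SSC lines and at 26.6 to 34.6 in MASC lines (median 32.2), without overlap. Its difference was -0.40 (SE 0.082, adjusted p = 0.00439), and it was not called when samples were centred (-0.14, adjusted p = 0.263). Ndufaf7, a methyltransferase, differed by 0.22 (SE 0.066, adjusted p = 0.0296) from 8.89 to 10.3 in SSC to 10.0 to 11.9 in MASC lines. That call was lost without any 1 of MASC.2, MASC.3, MASC.5, MASC.6, SSC.3 and SSC.4 (0.19 to 0.22), with GC content and length removed (0.08) and when transcripts at low FPKM were left out (0.22, adjusted p = 0.108), and the difference was -0.07 with coding totals made equal.

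The 4 subunits of complex II did not move together: 1 was higher and 2 were lower, and under the other scalings, in the order above, the counts were 1 and 3, 1 and 0, 1 and 3, and 1 and 3. Sdha, which binds FAD and oxidises succinate, was at 120, 97.1, 113 and 113 FPKM in SSC.1 to SSC.4 and at 80.6 to 89.1 in MASC lines (median 86.9), and the groups did not overlap (-0.37, SE 0.057, adjusted p = 0.000900, exact two-sided permutation p = 0.00952, the smallest that 210 splits of the lines allow). Sdhc, a membrane anchor, was at 128, 84.5, 171 and 118 against 66.7 to 93.6 (median 77.0), with SSC.2 inside the MASC range (-0.64, SE 0.173, adjusted p = 0.0182). Sdhd, the other anchor, was instead higher, at 73.6, 72.8, 57.02 and 60.1 against 93.2 to 122 (median 112), a difference of 0.75 (SE 0.097, adjusted p = 0.000301) that was called under all 5 scalings. Sdhb, the iron-sulphur subunit, was at 113, 87.6, 103 and 74.4 against 66.5 to 108 (median 79.9) and did not pass (-0.18, SE 0.167, adjusted p = 0.503). It was called lower with quantile normalization (-0.43, adjusted p = 0.0489), equal coding totals (-0.49, adjusted p = 0.00769) and GC content and length removed (-0.39, adjusted p = 0.00968). Sdha and Sdhc were not called when samples were centred (-0.10, adjusted p = 0.249, and -0.38, adjusted p = 0.0886). Sdhc was also not called without the 5 samples of highest fibroblast markers (-0.39, adjusted p = 0.194).

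Of the 8 complex III genes 4 were higher and 0 lower (at an unadjusted p under 0.05 also 4 and 0), with a median difference of 0.62. Under the other scalings the counts were 3 and 1, 6 and 0, 3 and 1, and 4 and 2, and the median was 0.18, 0.88, 0.31 and 0.32. Uqcrc2, a core protein of the matrix side, was at 40.5, 49.6, 40.3 and 33.1 FPKM in SSC lines and at 81.7 to 101 in MASC lines (median 89.8), a difference of 1.12 (SE 0.114, adjusted p = 6.89e-05). Its exons overlap Pdzd9 on the opposite strand. Uqcrfs1, the Rieske protein that hands electrons to cytochrome c1, was at 42.2, 48.7, 44.1 and 54.3 against 68.8 to 93.6 (median 78.0), a difference of 0.75 (SE 0.096, adjusted p = 0.000278). Uqcr10, a small accessory subunit, was at 153, 103, 159 and 106 against 233 to 507 (median 283), where MASC.1 and MASC.2 at 415 and 507 stood above the other MASC lines. It differed by 1.29 (SE 0.257, adjusted p = 0.00389). In all 3 the groups did not overlap. Uqcrc1, the other core protein, differed by 0.55 (adjusted p = 0.0386), and Uqcr11, Uqcrb, Uqcrh and Uqcrq were not called, with differences from -0.22 (Uqcrh) to 0.69 (Uqcrq). Uqcrh was called lower with quantile normalization, equal coding totals and GC content and length removed, Uqcr11 lower with the last of these, and Uqcrb and Uqcrq higher when centred.

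**Figure D4:**
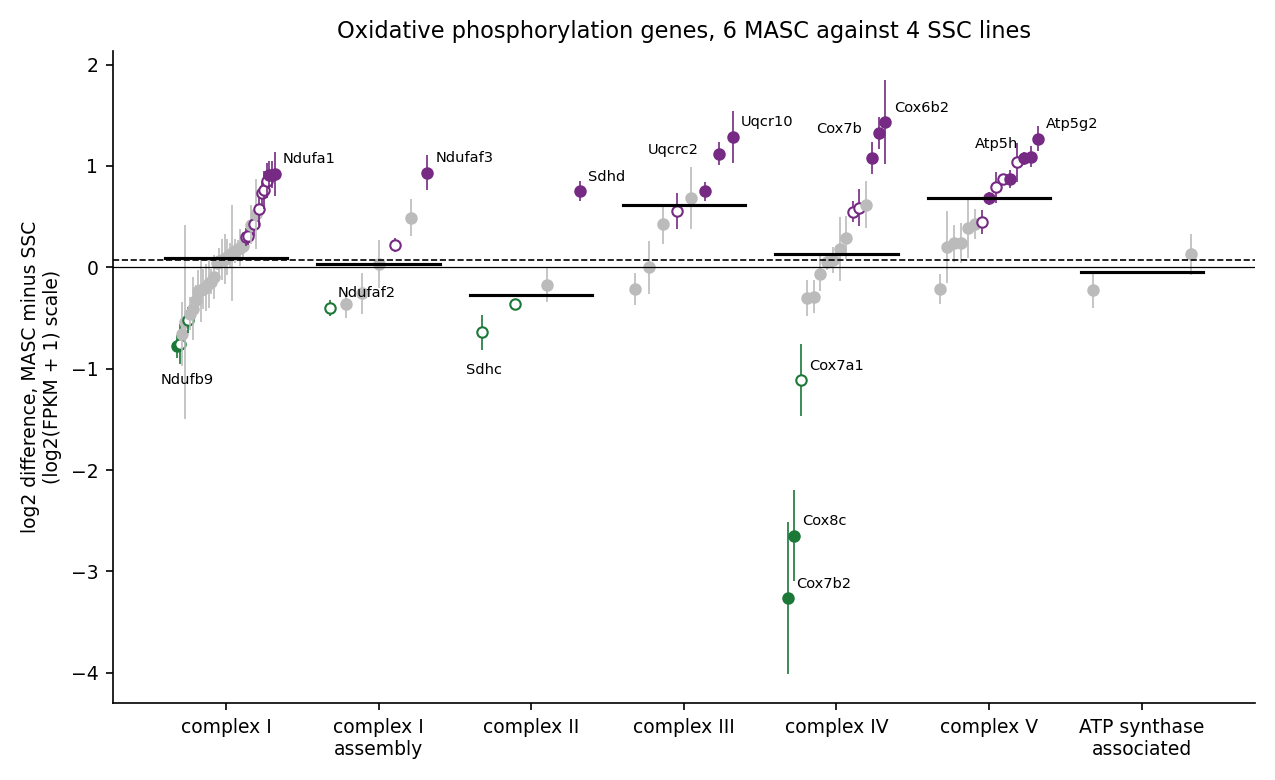
Points give the difference of MASC minus SSC lines in log2(FPKM + 1) for each of the 90 genes, by complex, with bars of 1 SE from limma; purple points were called higher, green lower and grey not called, and filled points kept the call as deposited, quantile normalized, centred and with equal coding totals. Black lines are complex medians (0.68 for complex V, 0.62 for complex III, -0.27 for complex II), and the dashed line is the median of well expressed transcripts (0.07).

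Complex IV held the largest differences in both directions. Of its 16 genes 5 were higher and 3 lower, with a median of 0.13, and the counts under the other scalings were 3 and 5, 9 and 3, 3 and 5, and 3 and 7. The median turned to -0.12, -0.07 and -0.32 in all but the centred scaling (0.39). Cox5a, which holds no metal but sits beside the catalytic core, was at 207, 222, 212 and 138 FPKM in SSC lines and at 344 to 522 in MASC lines (median 393), a difference of 1.08 (SE 0.157, adjusted p = 0.000597). Cox7b, the widely expressed isoform of subunit VIIb, was at 52.4, 51.3, 61.3 and 55.1 against 107 to 187 (median 137), a difference of 1.33 (SE 0.158, adjusted p = 0.000180). Neither gene's groups overlapped. Cox6c and Cox7c were also called higher (0.55 and 0.59), but not under quantile normalization, equal coding totals or with GC content and length removed. The other widely expressed subunits Cox5b, Cox6a1, Cox6b1, Cox7a2, Cox7a2l and Cox8a were not called with FPKM as deposited, with differences from -0.30 (Cox6a1) to 0.62 (Cox5b). With quantile normalization, equal coding totals and GC content and length removed, Cox6a1 was called lower (-1.04, -0.61 and -0.63) and so was Cox7a2l (-0.71, -0.60 and -0.59). Cox6b1 was called lower with quantile normalization (-0.50) and GC content and length removed (-0.40) and higher when centred (0.34), and Cox8a (0.56) and Cox5b were called higher when centred.

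The 3 genes called lower in complex IV, and 1 of those called higher, were tissue-restricted isoforms. Cox7b2, the testis-type form of Cox7b, was at 38.3, 1.97, 33.1 and 51.9 FPKM in SSC.1 to SSC.4 and at 0.246 to 2.64 in MASC lines (median 1.46). SSC.2 lay inside the MASC range while the other 3 SSC lines were far above it (-3.26, SE 0.746, adjusted p = 0.00821, exact permutation p = 0.0190). Without the 5 samples of highest fibroblast markers, which include SSC.1 and SSC.3, it was not called (-2.32, adjusted p = 0.200). Cox8c, the testis-type form of subunit VIII, was at 19.4, 10.7, 8.23 and 2.15 against 0.0866 to 0.951 (median 0.354), without overlap (-2.65, SE 0.449, adjusted p = 0.00152). Cox6b2, the testis-type form of Cox6b1, went the other way. It was at 13.2, 27.0, 12.9 and 7.84 in SSC lines and at 21.1 to 79.0 in MASC lines (median 36.3), with SSC.2 inside the MASC range (1.43, SE 0.411, adjusted p = 0.0244). Its call was lost without SSC.1 (1.41, adjusted p = 0.0570), SSC.3 (1.40, adjusted p = 0.0580) or SSC.4 (1.18, adjusted p = 0.0733), and without the 5 samples of highest fibroblast markers (1.15, adjusted p = 0.189). Cox7a1, the heart and muscle form of subunit VIIa, was at 27.5, 53.8, 31.6 and 99.4 against 16.2 to 35.4 (median 19.6), with overlapping groups (-1.12, SE 0.356, adjusted p = 0.0389). The call was lost with quantile normalization (-1.19, adjusted p = 0.0524) and without SSC.4 (-0.76, adjusted p = 0.0813), SSC.2 (-1.05, adjusted p = 0.0887) or any 1 MASC line but MASC.2 (-1.05 to -1.13).

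As shares of each isoform family, Cox7b2 made up 3.69% to 48.5% of Cox7b and Cox7b2 together in SSC lines (median 38.7%) and 0.153% to 2.11% in MASC lines, and it was 0 in the MEFs. Cox8c made up 0.518% to 4.68% of its family in SSC and at most 0.161% in MASC lines, so Cox8a made up at least 95.3% in every sample. Cox6b2 made up 2.53% to 7.78% of its pair in SSC lines and 6.30% to 16.2% in MASC lines. Cox7a1 made up 5.82% to 32.2% of the 3 Cox7a genes in SSC lines, 5.41% to 7.95% in MASC lines, 15.3% and 15.5% in iPS lines and 1.49% in the MEFs. Shares need no scaling between samples but rest on the length of each transcript. Germline isoforms outside the name rule were read beside them. Slc25a31, the germ cell ADP/ATP carrier, was at 115, 92.9, 125 and 107 FPKM in SSC lines and at 0.969 to 6.90 in MASC lines, whereas Slc25a5, a widely expressed carrier, was at 88.9, 76.0, 105 and 118 against 462 to 564 (2.41, SE 0.159, adjusted p = 4.96e-06). Cyct, the testis cytochrome c, was split among the SSC lines, at 68.3 and 73.2 in SSC.1 and SSC.3 and 0.510 and 1.47 in SSC.2 and SSC.4, with MASC lines between them at 18.3 to 50.2 (1.42, adjusted p = 0.407). Without the 5 samples of highest fibroblast markers, which leaves SSC.2 and SSC.4, Cyct was called higher in MASC lines (4.12, adjusted p = 0.00317). Cox4i1, the main isoform of subunit IV, was also high in SSC.1 and SSC.3 (1202 and 1482) against 522 and 553 in SSC.2 and SSC.4 and 470 to 801 in MASC lines (-0.53, adjusted p = 0.270). It was called lower with quantile normalization (-1.25, adjusted p = 0.000999), equal coding totals (-0.85, adjusted p = 0.0328) and GC content and length removed (-0.85, adjusted p = 0.00436). SSC.1 and SSC.3 are the SSC lines with the highest fibroblast markers. They also differed in GC content. GC-rich transcripts stood 0.71 and 0.56 from GC-poor ones in SSC.1 and SSC.3 on the log2 scale, and -0.48 and -0.10 in SSC.2 and SSC.4. The values were 0.57, 0.55 and 0.17 in MASC.1, MASC.2 and ESC.1. Leaving out the 5 samples of highest fibroblast markers, with SSC.1, SSC.3, MASC.1 and ESC.1 among them, therefore changed both. The part of either was not tested.

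**Figure D5:**
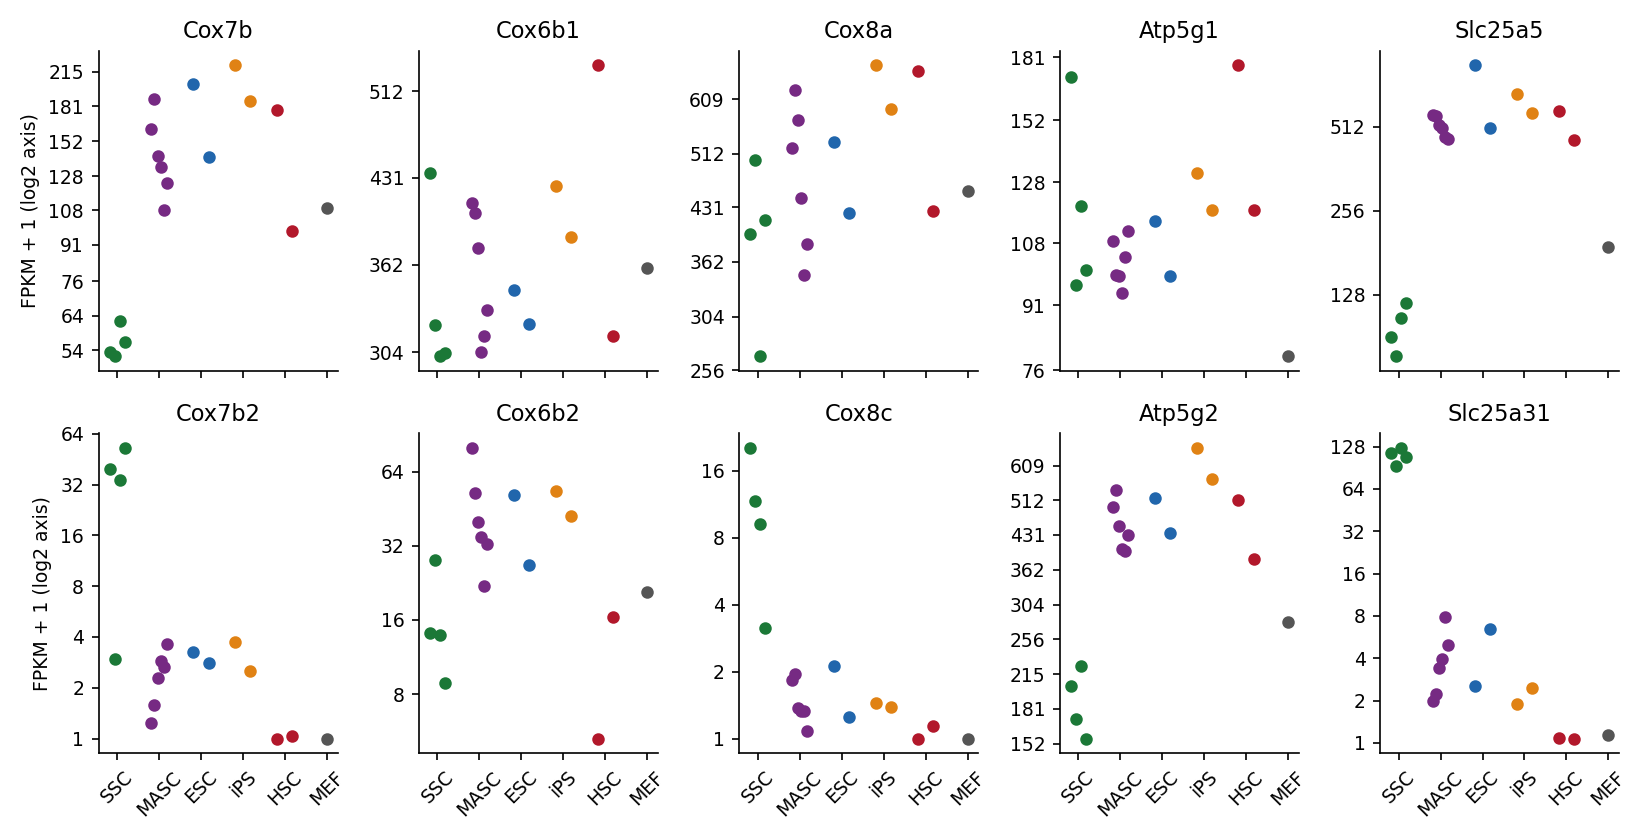
Points give FPKM + 1 per sample (log2 axis, different range in each panel) for 5 pairs of isoforms in the 17 samples, by group. Cox7b2, Cox8c and Slc25a31 were higher in most or all SSC lines (Slc25a31 at 92.9 to 125 FPKM) than in MASC lines (0.969 to 6.90), and Cox7b, Atp5g2 and Slc25a5 were higher in MASC lines.

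Complex V had the largest share of genes called higher with FPKM as deposited and with equal coding totals. Under the other scalings complex III had a larger share than complex V. Of the 15 complex V genes 9 were higher and 0 lower (10 and 0 at an unadjusted p under 0.05), with a median difference of 0.68. In 8 genes every MASC line was above every SSC line, against 9.92% of all transcripts. Under the other scalings the counts were 5 and 1, 11 and 0, 8 and 1, and 7 and 2, and the median was 0.05, 0.94, 0.37 and 0.22. The well expressed transcripts had medians of 0.07, 0.33, -0.22 and 0.01 there, so complex V lay below them with quantile normalization and above them in the others. In the F1 head, Atp5b was at 603, 537, 506 and 516 FPKM in SSC lines and at 939 to 1057 in MASC lines (median 977), and it differed by 0.87 (SE 0.057, adjusted p = 4.76e-06). With quantile normalization, which sets the values at each rank equal between samples, this top-ranking gene was not called (0.05, adjusted p = 0.829). Of the 5 F1 subunits Atp5a1 and Atp5c1, the alpha and gamma subunits, were also higher (0.87 and 0.68), while Atp5d and Atp5e, the delta and epsilon subunits, differed by 0.20 and 0.24 and were not called, although Atp5e was called lower with GC content and length removed.

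Subunit c forms the proton-carrying ring and is encoded by 3 genes for the same mature protein. Atp5g2 was at 202, 171, 223 and 155 FPKM in SSC.1 to SSC.4 and at 397 to 537 in MASC lines (median 439), a difference of 1.27 (SE 0.123, adjusted p = 5.09e-05). Atp5g3 was at 241, 247, 264 and 224 against 467 to 577 (median 509), a difference of 1.07 (SE 0.065, adjusted p = 2.95e-06). In both the MASC lines were all above the SSC lines. Atp5g1 was at 170, 95.4, 119 and 99.4 against 93.1 to 111 (median 101) and was not called (-0.21, adjusted p = 0.338), but it was called lower with quantile normalization (-0.54, adjusted p = 0.0116), equal coding totals (-0.52, adjusted p = 0.00680) and GC content and length removed (-0.51, adjusted p = 0.00600). Its share of the 3 genes was 18.6% to 27.8% in SSC lines and 8.08% to 10.4% in MASC lines. Of the peripheral stalk, Atp5h, subunit d, was at 152, 127, 131 and 98.3 against 254 to 300 (median 262), a difference of 1.09 (SE 0.105, adjusted p = 4.70e-05), and Atp5j differed by 1.04 (its exons overlap Gabpa on the opposite strand). Atp5f1 and Atp5o, also of the stalk, differed by 0.24 and 0.43 and were called (higher) when centred but under no other of the 5 scalings. Atp5k and Atp5l, small membrane subunits, differed by 0.79 and 0.45 and were not called with quantile normalization or with GC content and length removed. Of the genes named here, Atp5g2 and Atp5h each had 3 near-identical copies in the genome, Atp5l had 10 and Cox7c 5, and reads shared with copies were excluded by the authors. In all, 18 of the 90 genes had such a copy.

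Strain divides the lines as the labels give it, so the called differences were read within strains. Of the 31 genes called higher, 31 were higher and of the 9 called lower, 9 were lower between the 2 MASC and 2 SSC lines of Oct4-GFP and again between the 2 MASC lines and the 1 SSC line of 129mix. These lines are among those that made the calls, so the shared direction adds no independent evidence. With limma on the lines of 1 strain alone, which leaves few lines, 0 genes were higher and 0 lower in Oct4-GFP (20 and 4 at an unadjusted p under 0.05) and 1 was higher and 3 lower in 129mix (23 and 7), where 0.683% and 0.958% of all transcripts were called in the first and 3.67% and 8.61% in the second. Atp5b was then at adjusted p = 0.0943 and 0.0550, and Sdhd at 0.120 and 0.0732. With strain as a block in the fit 32 genes were higher and 7 lower, and 28 and 5 of these were among the 31 and 9. That block ended 7 calls, those of Ndufs8 (-0.54, adjusted p = 0.0651), Sdhc (-0.42, adjusted p = 0.125), Cox7a1 (-1.29, adjusted p = 0.0927), Ndufaf2 (-0.38, adjusted p = 0.0520), Ndufaf7 (0.18, adjusted p = 0.213), Ndufs4 (0.20, adjusted p = 0.121) and Ndufv2 (0.38, adjusted p = 0.143). The difference of Atp5b was 0.75 in Oct4-GFP and 1.00 in 129mix, that of Cox7b2 -2.95 and -4.37, and that of Sdhc -0.22 and -0.71. Gt(ROSA26)Sor-lacZ held only MASC lines and C57Bl/6J no MASC line, so neither gave a value.

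ESC lines were set against the same SSC lines, so this comparison shares its controls with the one above. Here 21 genes were higher and 2 lower (33 and 9 at an unadjusted p under 0.05), with a median of 0.29, against 0.04 for the well expressed transcripts and 0.36 for the short well expressed ones. The shares called higher were 7.67% of all transcripts, 18.5% of the well expressed and 22.6% of the short well expressed ones, and 13.8% of all were called lower. By complex, 5 and 1 of complex I, 1 and 0 of complex II, 3 and 0 of complex III, 3 and 1 of complex IV and 8 and 0 of complex V were called higher and lower. Cox7b was at 201 and 140 FPKM in the ESC lines against 51.3 to 61.3 in SSC lines (1.59, SE 0.212, adjusted p = 0.000665). Uqcr10 was at 417 and 274 against 103 to 159 (1.39, SE 0.345, adjusted p = 0.0174), and Atp5g2 at 516 and 433 against 155 to 223 (1.34, SE 0.165, adjusted p = 0.000422). All 3 were above every SSC line in both ESC lines. Cox8c was at 1.11 and 0.251 against 2.15 to 19.4 (-2.49, SE 0.603, adjusted p = 0.0157) and Ndufb9 at 191 and 186 against 270 to 366 (-0.72, SE 0.157, adjusted p = 0.00952). Under the other scalings the split was 17 and 12, 42 and 2, 13 and 13, and 15 and 19, and 12 genes higher and 2 lower were called in the first 4 scalings throughout, against 5.25% and 8.74% of all transcripts. Without the 5 samples of highest fibroblast markers, which leaves 1 ESC line, the split was 13 and 0. Without ESC.2 it was 14 and 0, without ESC.1 15 and 1, and without SSC.2 26 and 5.

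MASC and ESC lines were then compared with each other. None of the 90 genes was called by limma in either direction, and 0 passed an unadjusted p under 0.05. Of all transcripts 0.00306% were called higher and 0.0276% lower in MASC lines, so few calls were made at all. The differences ran from -1.03 (Ndufa4l2, SE 1.22, with ESC lines at 11.3 and 3.99 FPKM and MASC lines at 0.245 to 14.3) to 0.18 (Ndufa13, SE 0.399), with a median of -0.05. Atp5b was at 996 and 1118 in ESC lines and Sdha at 96.2 and 90.9, against 939 to 1057 and 80.6 to 89.1 in MASC lines. The missing calls do not show that the levels are equal.

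In iPS against ESC lines, 1 gene was called higher and 0 lower (11 and 0 at an unadjusted p under 0.05), where 0.196% and 0.113% of all transcripts were called. Ndufaf7 was at 18.5 and 16.999 FPKM in iPS lines and at 10.4 and 12.6 in ESC lines (0.58, SE 0.097, adjusted p = 0.0330). The call was lost under each of the other 4 scalings (0.48 to 0.60) and when ESC.1, iPS.1 or iPS.2 was left out, which left 0 genes called. Cox7a1 stood at 82.4 and 71.7 in iPS and 26.2 and 34.9 in ESC lines, and was not called.

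HSC cultures were lower than MASC lines in 20 genes and higher in 6 (26 and 11 at an unadjusted p under 0.05). Of all transcripts 16.8% were lower and 14.8% higher, and of the well expressed ones 37.6% and 17.5%. The median difference was -0.19, the same as for the short well expressed transcripts (-0.19), and -0.40 for all well expressed transcripts. The lower genes were spread over the complexes, with 5 of complex I, 4 of its assembly factors, 1 each of complexes II and III, 4 of complex IV, 4 of complex V and Atp5sl. Atp5b was at 510 and 436 FPKM in the HSC cultures, below every MASC line (-1.06, SE 0.080, adjusted p = 1.09e-06). Cox6b2 was at 4.28 and 15.5 against 21.1 to 79.0 (-2.10, SE 0.551, adjusted p = 0.0115), and Atp5sl at 8.48 and 11.7 against 16.99 to 25.2 (-1.06, SE 0.215, adjusted p = 0.00248). These 3 were below the MASC lines in both cultures.

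Among the genes higher in HSC cultures, Ndufb10, a membrane-arm subunit of complex I, was at 221 and 158 against 92.6 to 130 (0.76, SE 0.162, adjusted p = 0.00323). Sdhb was at 156 and 125 against 66.5 to 108 (0.75, SE 0.202, adjusted p = 0.0131). Cox6a2 was at 1.14 and 1.60 against 0 to 0.500 (0.96, SE 0.203, adjusted p = 0.00325), all low levels. The 2 cultures differed from each other: without HSC.1 the counts were 1 higher and 25 lower, and without HSC.2 12 higher and 11 lower. With strain as a block they were 0 and 7, and with GC content and length removed 4 and 29. Without the 5 samples of highest fibroblast markers, HSC.2 among them, they were 16 and 10. In the first 4 scalings throughout, 5 genes were higher and 15 lower, against 12.3% and 14.3% of all transcripts. Of the well expressed transcripts these shares were 14.8% and 34.3%. The mast cell markers given above, and a difference of GC-rich from GC-poor transcripts of 0.90 to 1.22 on the log2 scale in HSC cultures against -0.58 to 0.57 in MASC lines, moved with this comparison. Their part in it was not tested. Every HSC culture was C57Bl/6J and no MASC line was.

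The iPS lines were set beside the single MEF culture, with no replicate and no test. On the log2(FPKM + 1) scale 21 genes were at least 1 higher and 2 at least 1 lower in the iPS mean, against 14.8% and 12.6% of all transcripts. The median was 0.51, against 0.41 for the well expressed transcripts. Complex I had the lowest median of the 5 complexes (0.16) and complexes III, IV and V had 0.64, 0.62 and 0.66. Cox7a1 was at 82.4 and 71.7 FPKM in the iPS lines and at 4.25 in the MEFs (3.89), and Ndufaf6, an assembly factor, at 21.5 and 20.0 against 5.11 (1.83). Cox7b2 was at 2.71 and 1.51 in the iPS lines and was listed at 0 in the MEFs. Lower were Ndufs5, a complex I subunit, at 32.3 and 40.2 against 117 (-1.68), and Cox6a2 at 0.135 and 0.0388 against 2.28 (-1.59). Ndufa13 was next, at 51.5 and 47.6 against 96.9 (-0.96). Ndufs5 had 1 near-identical copy in the genome (99.6% identity). GC-rich transcripts stood 1.22 from GC-poor ones in the MEFs on the log2 scale, and -0.44 and -0.45 in iPS.1 and iPS.2. The part of GC content in this comparison was not tested.

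Other genes of the pathway were read from lists between MASC and SSC lines, where 11.4% of all transcripts were higher and 19.5% lower. Of 12 electron carriers and subunits outside the name rule 4 were higher and 0 lower (median 0.39). Gpd2, the mitochondrial glycerol 3-phosphate dehydrogenase, went from 0.841 to 1.25 FPKM in SSC lines to 13.5 to 15.8 in MASC lines (2.95), and Etfb, Dhodh and Atpif1 were the others. Of 29 further assembly factors 6 were higher and 6 lower (median 0.07), from Ttc19, a complex III factor (-1.41), to Nubpl, a complex I iron-sulphur factor (1.17), whose call was lost without the 5 samples of highest fibroblast markers (1.10, adjusted p = 0.125) and with strain as a block (1.13, adjusted p = 0.0544). Of 20 genes of mitochondrial biogenesis and mitochondrial DNA expression 7 were higher and 6 lower (median 0.11). Nrf1 (1.14), Tfam (0.70), Gabpa (0.70) and Yy1 (0.61), which encode regulators of respiratory genes or of mitochondrial DNA, were higher. Polg, the mitochondrial DNA polymerase, was lower (37.1 to 39.5 in SSC and 14.7 to 20.8 in MASC lines, -1.15), as were Polg2 (-0.80) and Polrmt (-0.61). Esrrb, also a pluripotency marker here, rose by 4.20.

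Of 23 genes of pyruvate dehydrogenase and the citric acid cycle 8 were higher and 3 lower (median 0.29). Idh2, the mitochondrial NADP-dependent isocitrate dehydrogenase, went from 4.24 to 8.06 FPKM in SSC lines to 49.2 to 112 in MASC lines (3.40), and Pdha1, the somatic E1 alpha subunit of pyruvate dehydrogenase, was higher by 1.496. Pdha2, the testis form of that subunit, was lower by -2.28 (SE 0.507, adjusted p = 0.00714), at 11.5 and 12.8 in SSC.1 and SSC.3 and 1.14 and 1.95 in SSC.2 and SSC.4 against 0.0481 to 0.288, and it was not called with strain as a block (-1.86, adjusted p = 0.0562). Of 12 carriers of the inner and outer membrane 6 were higher and 2 lower (median 0.52). Vdac1, the outer-membrane channel, went from 28.3 to 44.8 in SSC lines to 311 to 386 in MASC lines (3.23), and Slc25a3, the phosphate carrier, was higher by 1.34, whereas Slc25a31 (-4.92) and Mpc2, a subunit of the pyruvate carrier (-3.10), were lower.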

How the data were processed

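RNA of the 17 samples was sequenced from TruSeq libraries. The authors aligned reads with TopHat (TopHat2 2.0.11 in the submitters' processing notes) to mm9, left out duplicate and multi-mapping reads, and ran Cufflinks, whose version is not given in the sources used here, with upper-quartile and GC normalization. The deposited values are FPKM per RefSeq transcript. The deposited coverage, a Cufflinks estimate of reads per base, served only to compare libraries, and its ratio to FPKM ran from 1.26 in HSC.2 to 3.23 in iPS.1. The files hold no read totals, so depth is unknown and the number of lines sets the precision.

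Values were tested as log2(FPKM + 1) over all 32661 transcripts with limma 3.58.1 (R 4.3.3), no trend and Benjamini-Hochberg adjustment, and called at an adjusted p under 0.05. This scale understates changes of low genes. The iPS and HSC comparisons were fitted to all 17 samples, and iPS against MEF had no test and a limit of 1. Exact two-sided permutation used scipy 1.17.1 (Python 3.11.15). On simulated data for MASC against SSC lines, with 200 of 32661 transcripts changed, 6.5% were recovered at a log2 change of 0.5, 42% at 1 and 81% at 2. In the real data far more were called (11.4% higher and 19.5% lower). The adjusted p depends on that share, so these recovery rates do not describe the comparison made here.

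The genes given in full were the Sdh subunits, the isoform families, the 3 largest called differences in each direction by complex and comparison, the largest in each pathway list, and the highest and lowest of each complex. Other named genes were chosen after their values were seen. The members and lists were chosen with earlier results of these data known. Of the pathway list genes 3 had no row. The values of 1 member are not reported here by name; it stays in the counts. The promoter table has a later build (GRCm38.p6) than the files and was joined by symbol.

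Alternatives were a pseudocount of 0.1, a filter on low FPKM, quantile normalization, median centring, a sum per symbol, a trend with robust estimation, replicate and strain blocks, strains alone, a fit over all samples, leaving out each line, and a log2 limit of 2. Equal coding totals, removal of GC content and length, and leaving out the 5 samples with a fibroblast marker sum above 300 were added after the data were seen.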

Additional observations from a re-analysis of the deposited data

Results flagged for a closer look

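Within groups of 4 or 6 lines, 5 of the 98 groups checked held a sample set apart from the rest of its group by a gap larger than Dixon's 95% critical value, and chance alone gives about 1 in 20. Cox6b1 was at 434.23 FPKM in SSC.1 and at 300.49 to 319.87 in the other SSC lines. Cox7a1 was at 35.408 in MASC.2 and at 16.249 to 22.028 in the other MASC lines. Ndufa4l2, a paralogue of Ndufa4, was at 40.613 in SSC.3 against 0.83652 to 5.5412 in the other SSC lines, and at 14.284 in MASC.2 against 0.24483 to 3.5957 in the other MASC lines. Cox8b was at 0.22509 in MASC.4 and at 0 in the other MASC lines.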

How the results depend on the processing

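Counts are of the 90 genes, higher then lower. For MASC against SSC lines (31 and 9) they were 19 and 19 with quantile normalization, 47 and 4 when centred, 20 and 25 with equal coding totals, 18 and 33 with GC content and length removed, 0 and 2 by the rule of a log2 difference of at least 2 at a raw p under 0.05, 0 and 0 within Oct4-GFP and 1 and 3 within 129mix lines alone, and 23 to 30 and 8 to 10 when 1 line was left out. For ESC against SSC lines (21 and 2) 42 were higher when centred, and 12 were lower with quantile normalization, 13 and 13 were called with equal coding totals, 19 were lower with GC content and length removed, 4 were lower with the filter on low FPKM, the sum per symbol or the fit over 17 samples, and 13 and 0 were called without the 5 samples of highest fibroblast markers. By the log2 rule 0 were higher, and leaving out 1 line gave 14 to 26 and 0 to 5. For iPS against ESC lines the 1 gene became 0 with the filter, each scaling, either block, without those 5 samples and by the log2 rule, and was 0 to 1 when 1 line was left out. For HSC against MASC (6 and 20) the counts were 0 and 7 with strain as a block, 16 and 10 without those 5 samples, 0 and 1 by the log2 rule, and 1 to 12 and 11 to 25 when 1 line was left out. For iPS against MEF (21 and 2) they were 1 and 0 at a log2 limit of 2, 5 lower with equal coding totals, and 20 to 23 and 2 to 3 without 1 iPS line. MASC against ESC gave 0 and 0 throughout. Cox6b1, not called, turned to -0.50 with quantile normalization and to -0.40 with GC content and length removed, and Ndufaf7 to -0.067 with equal coding totals. The cause of these changes was not tested.

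The numbers in the sample titles did not pair MASC and SSC lines, since the deviations of same-numbered lines correlated at 0.26, -0.29, -0.28 and 0.17. With a replicate block the counts were 25 and 5 for MASC against SSC, 12 and 2 for ESC against SSC, 0 and 0 for iPS against ESC, and 3 and 15 for HSC against MASC.

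The lack of read totals, the dependence of the split on scaling, and 2 or fewer ESC, iPS, HSC and MEF samples each limit these results.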
